A study of Homo sapiens with 6 samples.

Results

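The genes described here encode 10 surface molecules through which an activated B cell touches and instructs other lymphocytes: CD40, CD80, CD86, CD70, ICAM1, CD58, CD48, SLAMF1, FCER2 and CD83. They were chosen by name, not by their values, though with earlier results of these data known. All 10 were found among the 23284 gene symbols of the expression tables, each at a single locus. They passed the filter on low values, which kept 11134 genes for testing. The samples were 3 control and 3 lyophilized samples of GM12873, a human B-lymphoblastoid cell line, that is, B cells grown without limit after transformation with Epstein-Barr virus. Control cells went from a PBS wash straight into TRIzol. Lyophilized cells were freeze-dried in 0.5 ml of 0.1 M trehalose in PBS and kept dry for 2 weeks at room temperature before they were put into TRIzol. The labels pair each control with 1 lyophilized sample of the same number, and these are called pairs 1, 2 and 3. All samples come from 1 cell line, and neither another storage time nor a group with trehalose or freeze-drying alone was analysed here.

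T cells need a second signal beside their antigen receptor, and B cells give it through CD80 and CD86, which bind CD28 and CTLA-4, and through CD70, which binds CD27. CD40 works in the other direction, since it receives the CD40 ligand of helper T cells and passes the signal on through TRAF adaptors to NF-kappaB. ICAM1 and CD58 hold the contact together by binding the integrin LFA-1 and CD2, while CD48 and SLAMF1 belong to the SLAM family of homophilic and heterophilic receptors. FCER2, also called CD23, is the low-affinity IgE receptor, and CD83 is a marker of mature dendritic cells and activated B cells. Epstein-Barr virus transformation places B cells in an activated state in which molecules of this kind are known to be abundant, in part because the viral protein LMP1 mimics CD40 signalling.

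All 10 genes were expressed in every sample, and none of them passed a test between the groups when the pairing was left aside. Within pairs, ICAM1 and FCER2 were lower and CD86, CD58 and CD48 higher after lyophilization, with ratios between 0.813 and 1.16. In the same comparison 14.9% of all genes tested passed as lower and 15.9% as higher. These 5 differences no longer passed once the GC content of transcripts was taken into account. That correction also removes any effect of lyophilization that runs with GC content, so such an effect and a bias of the libraries cannot be told apart. A larger difference lay between the pairs. Both samples of pair 1 had more RNA of 8 of the 10 genes than any other sample, against 13.7% of all genes tested.

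The genes differ widely in base composition. In the GENCODE annotation of GRCh37, the reference transcript of CD58 has 38.3% G and C, that of CD80 42.2%, CD86 43.4%, CD48 44.03%, SLAMF1 45.3%, CD83 46.1%, CD40 50.7%, ICAM1 56.1%, FCER2 58.7% and CD70 59.9%, against a median of 48.1% over the 9688 tested genes with a transcript. Coding sequence is printed for the 2 genes that were lower within pairs and for the most GC-rich member. Of the 3 genes that were higher, the 2 with the lowest GC content are shown. Each gene is shown by a stretch of 150 bases, taken where its composition is nearest to that of the whole coding sequence. The stretches are on the coding strand, 5′ to 3′, with G and C in capitals.
ICAM1: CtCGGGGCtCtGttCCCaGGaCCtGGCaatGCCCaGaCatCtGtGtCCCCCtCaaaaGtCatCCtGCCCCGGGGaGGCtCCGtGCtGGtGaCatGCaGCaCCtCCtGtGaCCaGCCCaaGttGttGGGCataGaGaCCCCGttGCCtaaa
FCER2: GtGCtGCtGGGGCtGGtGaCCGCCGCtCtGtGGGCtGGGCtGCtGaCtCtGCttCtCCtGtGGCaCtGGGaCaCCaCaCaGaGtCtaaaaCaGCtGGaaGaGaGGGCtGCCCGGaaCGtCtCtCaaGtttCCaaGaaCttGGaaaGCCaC
CD70: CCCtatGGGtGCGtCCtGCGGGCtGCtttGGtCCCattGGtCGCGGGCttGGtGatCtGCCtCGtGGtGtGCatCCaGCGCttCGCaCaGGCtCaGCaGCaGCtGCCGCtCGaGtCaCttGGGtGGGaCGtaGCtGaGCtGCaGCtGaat
CD58: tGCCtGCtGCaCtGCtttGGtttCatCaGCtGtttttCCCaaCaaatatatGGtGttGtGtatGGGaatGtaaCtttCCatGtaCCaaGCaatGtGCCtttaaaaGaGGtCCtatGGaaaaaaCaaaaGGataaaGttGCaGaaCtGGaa
CD86: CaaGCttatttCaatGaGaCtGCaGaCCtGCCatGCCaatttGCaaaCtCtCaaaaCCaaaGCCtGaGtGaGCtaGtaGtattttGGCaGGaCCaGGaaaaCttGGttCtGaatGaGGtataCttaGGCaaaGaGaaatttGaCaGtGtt
The stretches lie at bases 49 to 198 of the coding sequence of ICAM1, 73 to 222 of FCER2, 40 to 189 of CD70, 52 to 201 of CD58 and 85 to 234 of CD86. G and C make up 60.7% of the ICAM1 stretch, 59.3% of FCER2, 63.3% of CD70, 39.3% of CD58 and 41.3% of CD86. The stretch of CD48, the remaining gene that was higher, is not printed and has 48.0%. Capitals fill the first 3 sequences and are sparser in the last 2.

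The members lie on 5 chromosomes. On chromosome 1, CD48 (160648536 to 160681641, minus strand, 4 exons in the reference transcript) and SLAMF1 (160579891 to 160617081, minus strand, 7 exons) are neighbours in the SLAM cluster, and CD58 (117057156 to 117113715, minus strand, 6 exons) lies apart. CD80 (119243140 to 119278481, minus strand, 7 exons) and CD86 (121774209 to 121839988, plus strand, 7 exons) are both on chromosome 3. CD70 (6585850 to 6591163, minus strand, 3 exons), FCER2 (7753643 to 7767032, minus strand, 11 exons) and ICAM1 (10381517 to 10397291, plus strand, 7 exons) share the short arm of chromosome 19, CD40 (44746906 to 44758384, plus strand, 9 exons) is on chromosome 20 and CD83 (14117487 to 14137148, plus strand, 5 exons) on chromosome 6. These are the hg19 (GRCh37) loci of the deposited records. The library kit does not mark the strand, so reads from a gene on the other strand cannot be told apart: in the annotation 24.8% of the exonic bases of CD80 are also exonic in TIMMDC1, a gene of mitochondrial complex I assembly, 30.0% of those of CD48 in an lncRNA and 23.6% of those of ICAM1 in the lncRNA ICAM4-AS1, all on the opposite strand. TIMMDC1 had a mean of 31.6 FPKM, close to the level of CD80 itself, and its part in the CD80 values was not tested.

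FPKM (fragments per kilobase of transcript, scaled to the mapped reads of the sample) divides by transcript length, so genes of unlike length can be set side by side. The part of GC content and of overlapping genes in the order of the genes was not tested. CD48 was the most abundant member with 646 ± 259 FPKM in control cells against 714 ± 265 FPKM in lyophilized cells (mean ± SD over 3 samples each, as for the values that follow), above 99.1% of the genes tested. FCER2 followed with 481 ± 147 and 428 ± 130 FPKM, and CD70 with 324 ± 105 and 329 ± 96.4 FPKM. These 3 genes kept that order in all 6 samples, although their ranges overlapped, with pair 1 high for each. SLAMF1 had 129.9 ± 23.0 and 137.1 ± 30.7 FPKM and CD40 had 127.0 ± 42.6 and 128.3 ± 40.1 FPKM, and their order was not fixed, with SLAMF1 above CD40 in 3 of 6 samples.

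The adhesion molecules and the classical costimulatory ligands were less abundant. CD58 had 47.6 ± 6.56 FPKM in control cells against 54.7 ± 4.07 FPKM in lyophilized cells, and ICAM1 had 54.4 ± 20.1 and 43.6 ± 12.9 FPKM. CD58 exceeded ICAM1 in 4 of 6 samples, so that these could not be ranked either. CD83 had 40.6 ± 9.39 and 40.5 ± 9.62 FPKM and lay below ICAM1 in 5 of 6 samples. CD80 with 29.4 ± 6.20 and 31.6 ± 8.63 FPKM and CD86 with 16.8 ± 3.29 and 19.5 ± 3.83 FPKM closed the order in all 6 samples, and even CD86 stood above 66.7% of the tested genes. The steps from CD70 to SLAMF1, from CD40 to CD58 and from CD80 to CD86 were the only ones at which the ranges over the 6 samples did not overlap, with ratios of the means of 2.45, 2.49 and 1.68.

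**Figure D1:**
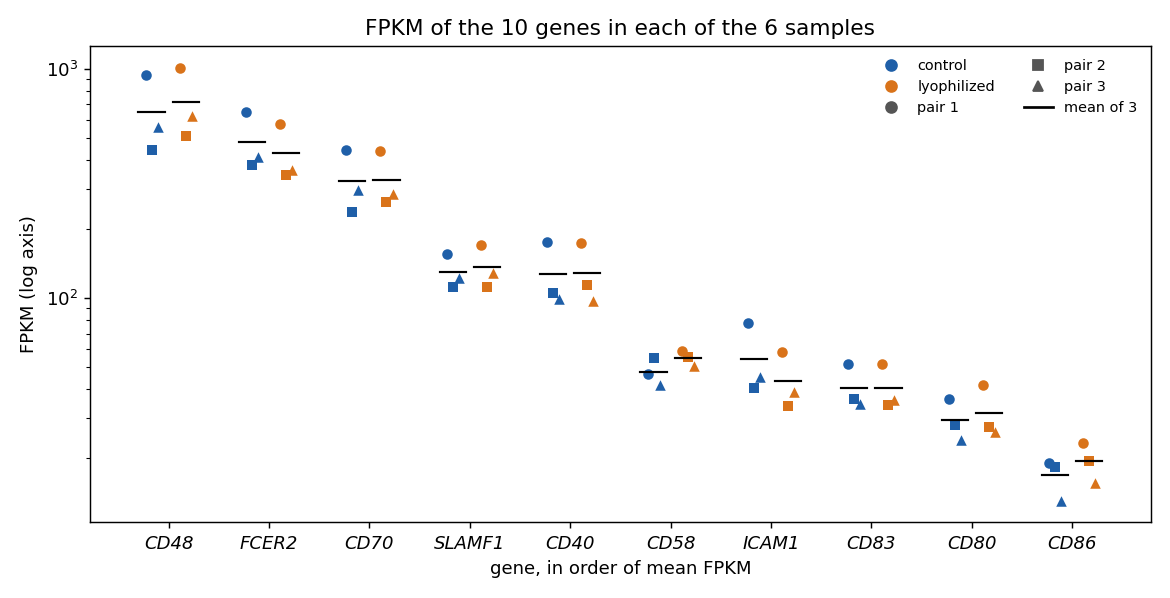
FPKM on a log axis for each gene in each sample, with controls in blue, lyophilized samples in orange, a marker shape per pair and a line at the mean of the 3 samples. The circles of pair 1 stand above the squares and triangles for 8 of the 10 genes, while the blue and orange means of a gene are close together.

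Together the 10 genes held between 0.30% and 0.509% of the summed FPKM of a sample. Marker genes of other cell types were read beside them, since several of these molecules are also made by dendritic cells, macrophages or endothelium. All 7 B-cell markers had a mean above 1 FPKM, from EBF1 at 2.90 to MS4A1, which encodes CD20, at 324 FPKM, and their summed level spanned 826 to 1102 FPKM in control cells and 828 to 1099 FPKM in lyophilized cells. Of 8 T-cell markers only CD28, at 3.45 FPKM, had a mean above 1, while CD3G and CTLA4 were 0 in every sample. Of 6 myeloid markers 2 exceeded 1 FPKM, with LYZ at 0.0098 and CD68 at 3.40 FPKM, and of 4 dendritic cell markers 2 did, with CLEC9A at 0 and LAMP3 at 33.7 FPKM. The 4 natural killer cell markers ranged from KLRD1 at 0 to NKG7 at 5.63 FPKM, the 4 fibroblast markers from DCN at 0 to COL1A1 at 0.226 FPKM and the 3 endothelial markers from CDH5 at 0 to PECAM1 at 0.374 FPKM. The summed level of each of the 7 marker lists overlapped between the groups. In RNA from a bulk sample, fewer cells that carry a molecule and less of its RNA per cell cannot be told apart. The FPKM values give depth in relative terms: from their smallest steps, controls 1, 2 and 3 had 1, 1.38 and 1.66 and lyophilized samples 1, 2 and 3 had 1.89, 1.84 and 1.53 times the depth of control 1.

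For every gene but CD58, pair 1 differed from the mean of the other pairs by more than the groups differed from each other. CD48, which binds CD2 and CD244, measured 938, 442 and 558 FPKM in controls 1, 2 and 3 and 1013, 508 and 620 FPKM in lyophilized samples 1, 2 and 3. Pair 1 was highest and pair 2 lowest in both groups. Its mean over pair 1 was 1.83 times that of pairs 2 and 3 together. CD40 measured 176.1, 105.5 and 99.5 FPKM in controls 1 to 3 and 173.4, 114.5 and 97.0 FPKM in their lyophilized partners, again with pair 1 far above the rest. CD70, the CD27 ligand, measured 441, 238 and 295 FPKM in controls 1 to 3 and 439, 262 and 285 FPKM in their lyophilized partners. Both pair 1 values of CD70 lay above the other 4.

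FCER2 had 649, 381 and 412 FPKM in controls 1 to 3 and 577, 342 and 362 FPKM in their lyophilized partners. ICAM1 had 77.4, 40.4 and 45.4 FPKM in controls 1 to 3 and 58.2, 33.7 and 38.9 FPKM in their lyophilized partners. In both genes pair 1 was again apart and the lyophilized member of each pair was the lower one. CD83 had 51.4, 36.1 and 34.3 FPKM in controls 1 to 3 and 51.6, 34.1 and 35.9 FPKM in their lyophilized partners. SLAMF1 had 155.8, 112.1 and 121.7 FPKM against 171.2, 111.5 and 128.7 FPKM in the same order. CD80 had 36.2, 28.0 and 24.0 FPKM against 41.6, 27.4 and 25.9 FPKM. For these 3 genes too, both samples of pair 1 lay above all others.

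CD86 and CD58 departed from this pattern. CD86 had 19.1, 18.3 and 13.1 FPKM in controls 1 to 3 and 23.3, 19.5 and 15.7 FPKM in their lyophilized partners, so that pair 3 was low and pairs 1 and 2 overlapped. CD58 had 46.6, 54.7 and 41.7 FPKM in controls 1 to 3 and 58.6, 55.1 and 50.5 FPKM in their lyophilized partners, with no pair standing apart.

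Both pair 1 samples were above the other 4 samples for 8 of 10 genes, against 13.7% of all genes tested. In an F test for the pair, fitted with limma across all genes with the condition as a term, 9 of 10 genes passed an adjusted p of 0.05 (Benjamini-Hochberg, as throughout), against 45.2% of all genes. The adjusted p was lowest for CD48 (8e-06), and CD58 did not pass (0.065). By mean level, CD86, the lowest of the 10 genes, stood above 66.7% of the tested genes, and the shares over all genes are not matched for level. Contrasts between pairs, added after the values had been seen, gave 8 genes higher in pair 1 than in pair 2, against 16.3% of all genes, and 9 higher in pair 1 than in pair 3, against 11.5%. The log2 differences from pair 2 ran from 0.48 for CD80 to 1.04 for CD48 (SE 0.05) among those that passed, and those from pair 3 from 0.38 for SLAMF1 (SE 0.06) to 0.83 for CD40 (SE 0.06). The median over all tested genes of the log2 difference of pair 1 from the mean of the other pairs was -0.12, and the median over the 10 genes was 0.63. Pairs 2 and 3 differed from each other in 2 of 10 genes, against 7.96% of all genes. CD86 was higher in pair 2 by 0.40 (SE 0.09, adjusted p = 0.024 from limma) and CD48 lower (log2 difference -0.31, SE 0.05, adjusted p = 0.0065).

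Within pair 1, control 1 had the lowest relative depth of all samples and lyophilized sample 1 the highest. Transcript GC content moved with the difference of pair 1, with a Spearman correlation of 0.37 across 9688 genes and 0.54 across the 10 genes, which share libraries and are not replicates, and the count of genes that passed the F test was 10 of 10 after a correction for GC content. Nothing in the labels says how the 3 pairs differed, and the part of depth, GC content, culture, harvest or library preparation was not tested. The p-values of the F test and the contrasts set differences between pairs against the spread left within pairs after the condition is fitted. These p-values do not measure how far other pairs would differ, and the differences between these pairs may be technical.

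**Figure D2:**
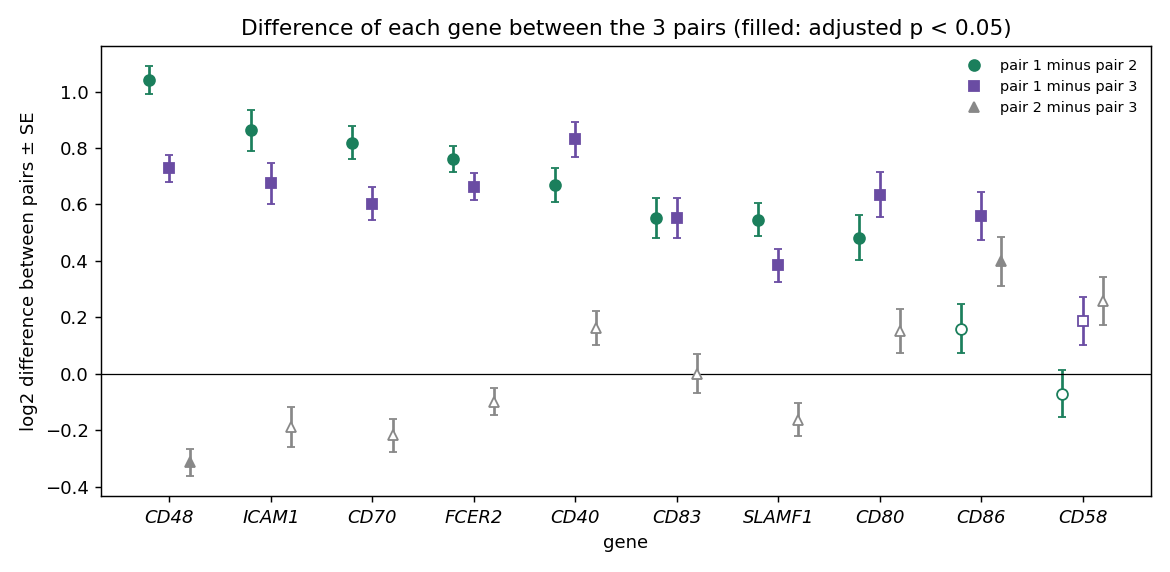
Log2 difference between pairs (vertical axis, with its standard error) for each gene, with green circles for pair 1 minus pair 2, violet squares for pair 1 minus pair 3 and grey triangles for pair 2 minus pair 3, filled where the adjusted p was below 0.05. For 8 genes the circles and squares lie between 0.38 and 1.04, whereas the triangles scatter around 0 between -0.31 and 0.40.

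The promoters of these genes were read for kappaB-like motifs, since CD40 and its viral mimic signal through NF-kappaB. RefSeq promoter windows on GRCh38.p14, from 250 bases before to 50 bases after a transcript start, were matched by symbol for 8 of the 10 genes. GGAANNTCC was found on either strand in 4.57% and GGGANNNCC in 22.9% of the 35116 windows, and 26.4% held at least 1 of the 2 forms, which can overlap. The 8 genes have 11 windows, of which 5 held a match, in ICAM1, CD83, CD86 and FCER2. The windows of ICAM1 and CD83, which hold forms readable on both strands, are shown with the motif in capitals, 5′ to 3′ on the strand of the gene.
ICAM1: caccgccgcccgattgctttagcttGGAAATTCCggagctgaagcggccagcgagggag
CD83: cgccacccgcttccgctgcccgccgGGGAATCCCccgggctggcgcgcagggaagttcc
The first lies at chr19:10270909-10270967 and the second at chr6:14117672-14117730, both on the plus strand of GRCh38.p14, and the motifs begin 186 and 75 bases before the start. In the CD83 window, GGAAGTTCC, a match to the other form, follows at 50 bases before the start. These matches describe letters. Their part in the levels of these genes was not tested.

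Whether freeze-drying and storage moved the level of these genes was asked first without the pairing, with limma on log2(FPKM + 0.1). Fold changes are on that scale and come out smaller than the true ratio where values are low. None of the 10 genes passed, and none reached an unadjusted p of 0.05. Over all tested genes, 0.557% passed as lower and 0.018% as higher, and 1573 genes had an unadjusted p below 0.05. The log2 differences (lyophilized minus control) ran from -0.30 for ICAM1 (SE 0.28) to 0.21 for CD86 (SE 0.20), with a median of 0.05 against 0.04 over all genes, and the lowest adjusted p was 0.50. For none of the 10 genes were the groups without overlap, against 22.2% of all genes.

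With the pair as a block, as the labels give it, the same differences had smaller errors. ICAM1, the LFA-1 ligand, was lower, with a log2 difference of -0.30 (a ratio of 0.813, SE 0.06, adjusted p = 0.0064 from limma). FCER2 was lower, with a log2 difference of -0.17 (SE 0.04, adjusted p = 0.012). CD48 was higher by 0.15 (SE 0.04, adjusted p = 0.018), CD86 by 0.21 (SE 0.07, adjusted p = 0.045) and CD58 by 0.21 (SE 0.07, adjusted p = 0.047). Thus 2 of 10 genes passed as lower, against 14.9% of all genes, and 3 of 10 as higher, against 15.9%, counts too small to set these genes apart from the rest. The same 5 genes were those that moved the same way in all 3 pairs, a pattern that 28.8% of all genes showed as lower and 33.4% as higher.

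The log2 ratio of lyophilized to control for ICAM1 was -0.41, -0.26 and -0.22 in pairs 1, 2 and 3. The log2 ratios of FCER2 were -0.17, -0.15 and -0.19, with the smallest spread between pairs of the 10 genes (SD 0.02). CD48 had log2 ratios of 0.11, 0.20 and 0.15. Those of CD86 were 0.29, 0.09 and 0.26, smallest in pair 2. CD58 rested on pairs 1 and 3, with log2 ratios of 0.33 and 0.28, against 0.01 in pair 2. Of the other 5 genes, CD80 (log2 difference 0.09), SLAMF1 (0.07), CD70 (0.03), CD40 (0.02) and CD83 (-0.003) had standard errors of 0.05 to 0.06 and did not pass, and their ratios changed sign between pairs. ICAM1 was the only one of the 10 to pass whichever pair was left out. Without pair 3 it passed alone (adjusted p = 0.010), without pair 1 it passed with CD48 and FCER2, and without pair 2 the 5 genes passed together with CD80. The share of all genes that passed with 1 pair left out is not given here, so these calls do not set ICAM1 apart from other genes.

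**Figure D3:**
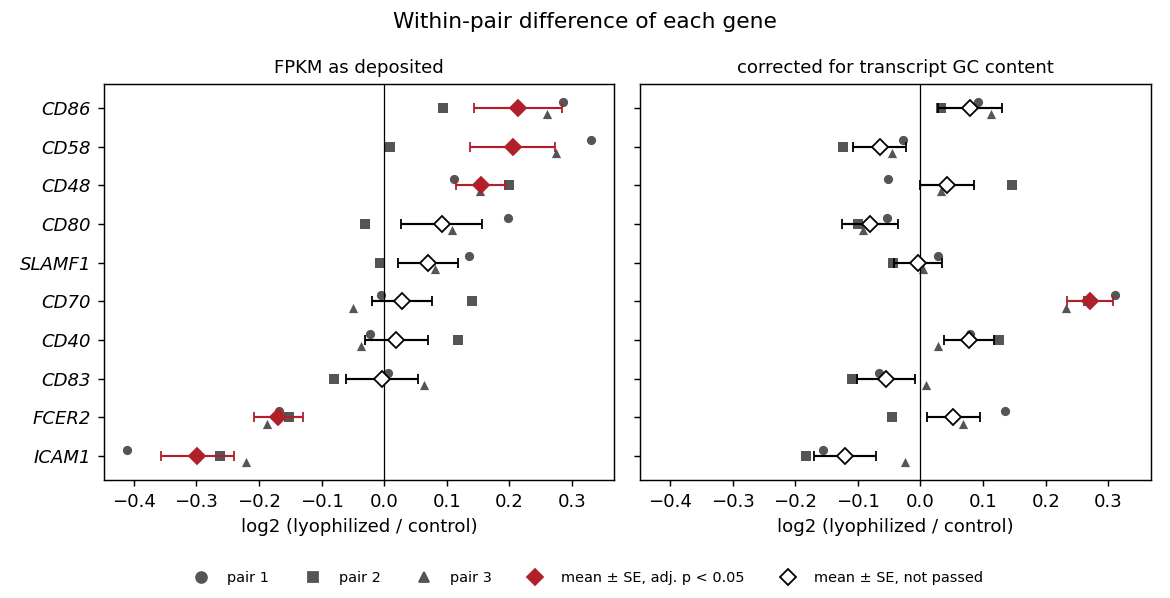
Log2 ratio of the lyophilized to the control sample for each gene (horizontal axis), with a grey marker per pair and a diamond for the mean with its standard error from the fit with the pair as a block, red where the adjusted p was below 0.05. On the left, from FPKM as deposited, 5 genes are red, with ICAM1 and FCER2 to the left of 0; on the right, after correction for transcript GC content, only CD70 is.

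The direction of these differences ran with base composition. Across the 10 genes the Spearman correlation between the log2 difference within pairs and transcript GC content was -0.79, and it was -0.78 across the 9688 tested genes with a transcript, a description over points that share the same 6 libraries. CD58, CD86 and CD48, with transcripts at 38.3%, 43.4% and 44.03% G and C, were higher, and ICAM1 and FCER2, at 56.1% and 58.7%, were lower. CD70 did not follow, being the most GC-rich member at 59.9%, and its log2 difference was 0.03 (SE 0.05). CD80, at 42.2% less GC-rich than CD86 and CD48, had a smaller log2 difference than either, 0.09 (SE 0.06).

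When a smooth curve of log2 level over GC content was removed from each sample, none of the 5 genes passed. The curve also takes away any effect of lyophilization that runs with GC content. This fit therefore cannot separate such an effect from a bias of the libraries. ICAM1 kept a log2 difference of -0.12 (adjusted p = 0.13 from limma), FCER2 turned to 0.05, CD58 to -0.07, CD48 fell to 0.04 and CD86 to 0.08. CD70 alone passed, with a log2 difference of 0.27 (adjusted p = 0.0025) and values of 0.31, 0.27 and 0.23 in pairs 1, 2 and 3. Over all genes 6.68% passed as lower and 9.6% as higher in this fit. CD70 has the shortest reference transcript of the 10 at 911 nt, against a median of 3200 nt over tested genes, and with transcript length corrected as well, a fit added after the values were seen, none of the 10 genes passed and the adjusted p of CD70 was 0.24. Rescaling the samples by their median ratio, together with the block, left ICAM1 and FCER2 as the only genes that passed, while the log2 differences were 0.19 for CD86 (adjusted p = 0.055), 0.19 for CD58 (adjusted p = 0.051) and 0.14 for CD48 (adjusted p = 0.079). With quantile normalization and the block, both fits added after the values were seen, CD48 had a log2 difference of 0.0036 (adjusted p = 0.95) and CD58 one of 0.18 (adjusted p = 0.071), FCER2 moved to -0.28, and ICAM1, FCER2 and CD86 passed. The share of all genes that passed is not given here for these added fits.

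**Figure D4:**
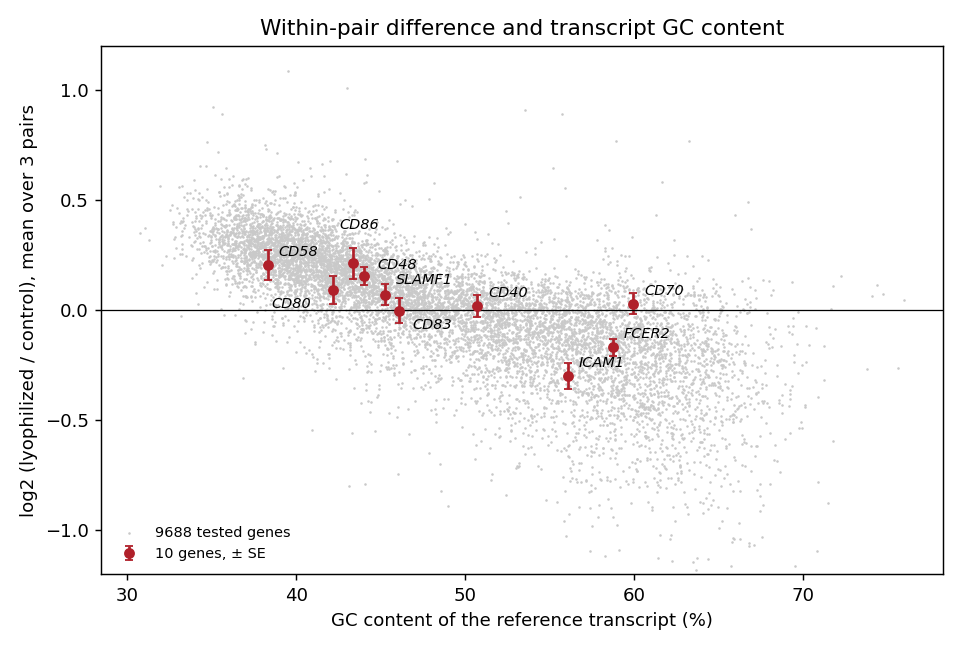
Log2 ratio of lyophilized to control, averaged over the 3 pairs (vertical axis), against the GC content of the reference transcript in percent (horizontal axis), with grey points for 9688 tested genes, of which 21 lie outside the drawn range, and red points with standard errors for the 10 genes. The red points tend to descend from CD58 on the left to ICAM1 on the right, with CD80 at 42.2% lying lower than CD86 and CD70 at 59.9% lying near 0.

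CD80 and CD86 share their receptors on T cells, and their balance was compared as a ratio. CD80 RNA was 1.89, 1.53 and 1.84 times CD86 RNA in controls 1, 2 and 3, and 1.78, 1.41 and 1.66 times in lyophilized samples 1, 2 and 3. CD80 was the more abundant in every sample, and pair 2 had the lowest ratio in both groups. In the annotation 24.8% of the exonic bases of CD80 are also exonic in TIMMDC1 on the opposite strand. The part of TIMMDC1 reads in this ratio was not tested. The log2 ratio was 0.80 ± 0.16 in control cells against 0.68 ± 0.17 in lyophilized cells (mean ± SD over 3 samples each). The difference of -0.12 was smaller than the spread within the groups (two-sided exact permutation test of 3 against 3, p = 0.5, where the smallest possible p is 0.1). It had the same sign in 3 of 3 pairs, with an SD of 0.03 between pairs, and the exact sign-flip test over pairs gave its smallest possible p of 0.25.

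Genes that work with these molecules were read from 5 lists, which hold 71 genes, of which 62 passed the filter on low values. Without the pairing none of the 62 passed, and the lowest adjusted p was 0.16. With the pair as a block, 15 were lower and 10 higher in the lyophilized samples, against 14.9% and 15.9% of all genes, and the median log2 difference was -0.06 against 0.04 over all genes. Among 19 tested costimulatory ligands and receptors other than the members, 7 were lower and 2 higher, and the same 2 shares of all genes apply to the counts of each list. Both samples of pair 1 lay above the other 4 for 26 of the 62 genes, against 13.7% of all genes, and 44 of the 62 passed the F test for the pair, against 45.2%. The BAFF receptor gene TNFRSF13C was lower (log2 difference -0.62, SE 0.06, adjusted p = 0.00035 from limma), from 54.7 ± 15.2 to 35.3 ± 7.56 FPKM, and it passed also with GC content corrected (log2 difference -0.44, adjusted p = 0.0010) and with length corrected as well (adjusted p = 0.0012). ICOSLG, which encodes the ligand of the T-cell receptor ICOS, had a log2 difference of -0.46 (SE 0.08, adjusted p = 0.0045), and CD276, of the B7 family like CD80 and CD86, one of -0.39 (SE 0.13, adjusted p = 0.049). With GC content corrected, ICOSLG passed (adjusted p = 0.043) and CD276 did not, and with length corrected as well neither passed.

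Of 17 tested adhesion molecules and integrins, 4 were lower and 3 higher. ITGAL, which encodes the alpha chain of LFA-1, the receptor of ICAM1, had a log2 difference of -0.51 (SE 0.08, adjusted p = 0.0023 from limma), from 12.9 ± 1.84 to 9.07 ± 1.45 FPKM, and it passed with GC content corrected (-0.35, adjusted p = 0.0074). ITGAX, which encodes CD11c, had -0.51 (SE 0.14, adjusted p = 0.022) at a mean of only 2.31 FPKM, and ITGB1, the integrin beta 1 chain, had 0.38 (SE 0.08, adjusted p = 0.011). Neither of these passed with GC content corrected.

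None of the 5 tested genes of the SLAM family and its adaptors passed, with a lowest adjusted p of 0.33 from limma. Both samples of pair 1 lay above the other 4 for 5 of these 5 genes, for 10 of the 19 costimulatory genes, 5 of the 17 adhesion genes, 2 of the 9 signalling genes downstream of CD40 and 4 of the 12 other surface antigens. Over all genes tested that share was 13.7%. The signalling genes downstream of CD40 gave 2 lower and 3 higher of 9. BIRC2 and BIRC3, the inhibitor of apoptosis proteins recruited to TRAF2, had log2 differences of 0.43 (SE 0.09, adjusted p = 0.0070) and 0.41 (SE 0.09, adjusted p = 0.010), and MAP3K14, the kinase NIK that they keep low, had -0.37 (SE 0.07, adjusted p = 0.0069). None of the 3 passed with GC content corrected. The F test for the pair was passed by 2 of these 9 signalling genes, 15 of the 19 costimulatory genes, 15 of the 17 adhesion genes, 4 of the 5 SLAM genes and 8 of the 12 other surface antigens. Over all genes tested 45.2% passed it.

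Of 12 other surface antigens of activated B cells, 2 were lower and 2 higher. The tetraspanin genes CD81 and CD37 had log2 differences of -0.30 (SE 0.05, adjusted p = 0.0025 from limma) and -0.23 (SE 0.05, adjusted p = 0.0083), and ADAM10, the protease that sheds FCER2 from the cell surface, had 0.40 (SE 0.10, adjusted p = 0.016). With GC content corrected the log2 differences were -0.02, -0.01 and 0.11, and none of the 3 passed, while CD37 passed with length corrected as well (adjusted p = 0.035). Over the 5 lists, 5 genes passed as lower and 5 as higher with GC content corrected, against 6.68% and 9.6% of all genes. With length corrected as well, 4 passed as lower and 3 as higher, and the share of all genes is not given here for that fit.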

How the data were processed

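Poly(A)-selected RNA of 3 control and 3 lyophilized samples was sequenced with 75 bp single-end reads. Per the labels and the study's methods, the authors mapped reads to hg19 with TopHat2 2.0.7 and deposited Cufflinks FPKM values, 1 value per record and sample. The Cufflinks version and gene annotation are not given in the sources used here. The 24934 records were reduced to 23284 symbols (highest mean FPKM), and 1622 small RNA symbols were left out of the tests. The filter kept genes whose control or lyophilized mean exceeded 1 FPKM. Log2(FPKM + 0.1) was fitted with limma (version 3.58.1, run in R 4.3.3) and a variance trend, without and with the pair as a block, and p-values were adjusted by the Benjamini-Hochberg method over all genes. The labels pair the samples, and deviations from the group means correlated within pairs at r = 0.716, 0.603 and 0.476. A loess curve (span 0.3, degree 2) over GC content, or GC content and log2 length, was subtracted in 2 further fits, which cover 87.0% of tested genes. Scripts ran in Python 3.11.15 with pandas 2.3.3 and scipy 1.17.1, and the fit was tested on simulated data.

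No confidence intervals or floors were computed. FPKM values give no counts, the standard errors come from limma, and precision is limited by 3 samples per group. The members, lists and tests were chosen with earlier results of these data known. All members are named. Of each list, up to 3 genes are named, those with the largest change among genes that passed with the block and moved 1 way in all pairs, and of each marker list the lowest and highest gene. Alternatives covered the pseudocount, filters, scaling, trend, records summed, corrections and each sample or pair left out.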

Additional observations from a re-analysis of the deposited data

How the results depend on the processing

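Without the pairing, 0 of 10 genes passed under every pseudocount, filter, scaling, trend and record setting and with any 1 of the 6 samples left out, and the same held for the 62 pathway genes. With the replicate block, 5 members passed (1 with GC correction) and 25 pathway genes (10 with GC correction). Of all genes, 14.9% passed as lower and 15.9% as higher with the block, and 6.68% and 9.6% with GC correction. With the block and 1 pair left out, between 1 and 6 members passed (3 without pair 1, 6 without pair 2, 1 without pair 3) and between 13 and 32 pathway genes (16, 32 and 13). Fits added after the data were seen gave, with the block, 2 members and 26 pathway genes after median-ratio rescaling, 3 and 27 after quantile normalization, where CD48 fell to 0.0036, and 0 and 7 with GC and length correction. The share of all genes is not given here for the fits with 1 pair left out, for these added fits or for the alternatives to the F test. The counts from those fits are therefore not compared with all genes here. In the F test for pairs, 9 or 10 members passed under every alternative, and the CD80 to CD86 difference stayed negative under both other pseudocounts, with records summed and with each sample left out, from -0.22 without control 2 to -0.026 without lyophilized sample 2, and at -0.12 with the replicate block.

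The sign of several small log2 differences changed. Under quantile normalization, with or without the block, CD40 had -0.035 and CD70 -0.038. With GC correction, CD80 had -0.081, CD58 -0.065, SLAMF1 -0.0037 and FCER2 0.053, and with length corrected as well CD80 had -0.077, CD58 -0.055 and CD48 -0.0042. With the block and without pair 2, CD40 had -0.029, CD70 -0.027 and CD83 0.035. Leaving out 1 sample without the block moved CD40 between -0.22 and 0.28, CD80 between -0.12 and 0.25, CD70 between -0.20 and 0.27, CD48 between -0.13 and 0.46, SLAMF1 between -0.10 and 0.21, FCER2 between -0.41 and 0.068 and CD83 between -0.19 and 0.18, the lowest always without lyophilized sample 1 and the highest always without control 1. ICAM1 and CD86 kept their sign in every fit, between -0.53 and -0.014 and between 0.042 and 0.36 with 1 sample left out. For CD40, CD80, CD70, CD48, SLAMF1, FCER2 and CD83 both samples of pair 1 were the highest. Leaving out 1 of them without the block keeps the other high value in 1 group only. The cause of the other changes was not tested.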
